A study of Mus musculus with 25 samples.

Results

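Transport between the endoplasmic reticulum (ER) and the Golgi runs on 2 protein coats, COPII and COPI, and on the receptors that load cargo into their vesicles. Their genes were followed here as a group of 43, chosen by symbol for their known roles. The rule used no measured value, although earlier results of these data were known when the group was drawn up. All 43 were among the 18440 genes listed in all 5 deposited tables, and 41 were expressed highly enough to be tested. They fall into 8 role groups: the GTPase and assembly factors of COPII (5 genes), the COPII coat (9), large-cargo adaptors (2), the p24 family (9), other cargo receptors (4), KDEL receptors (3), the COPI coat (9), and the GTPase Arf4 with the Golgi tether Golgb1 (2).

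The study measured RNA in the retina of wild-type C57BL/6J mice that received a small molecule in the vitreous of both eyes at postnatal day 30. There were 25 libraries, 5 in each of 5 groups: AA147 (described as activating ATF6, an ER stress sensor), Ceapin-A7 (described as inhibiting ATF6), tunicamycin (the positive control, an inhibitor of N-linked glycosylation) and 2 sets of vehicle libraries. Injections of the compounds held 10 µM in a volume of 1 µL. The vehicle was described as saline with 0.05 to 0.1% DMSO, although the treatment label of both sets reads PBS. A time of 24 h stands in the column names of the compounds but not in those of vehicle, while the series names 24 h, 3 d and 7 d. If vehicle retinas were taken at another time, that cannot be told apart from the compound. Whether the 5 libraries of a group are 5 animals is not stated, and the p-values thus reflect library-to-library spread that may be technical. The tables share 2 gene lists, one for vehicle set 1 and AA147 and the other for the remaining 3 groups, so each compound was compared with the vehicle set of its own gene list. Tunicamycin and Ceapin-A7 share vehicle set 2 as their control.

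COPII vesicles bud from the ER when the GTPase SAR1, loaded by PREB, recruits the SEC23-SEC24 inner coat and then the SEC13-SEC31 outer cage. SEC24 and the cargo receptors choose what is carried, and COPI vesicles bring receptors and escaped ER proteins back, the latter through KDEL receptors that recognise a short signal at the end of ER chaperones. Folding stress in the ER is known to raise genes of this machinery together with chaperones, and in the retina the pathway carries the large output of rhodopsin of the rod photoreceptors.

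Start regions of the genes were read for 2 elements linked to ER stress, which places the later values on sequence. RefSeq promoter windows (250 bases before to 50 after a gene's start, build GRCm38.p6, an earlier build than the GRCm39 named by the submitters) were found for 37 of the 43 genes, as 43 windows. There were none for Arcn1, Golgb1, Kdelr2, Lman1, Tmed2 and Tmed7. The element TGACGTGG, known as the UPR element, was searched on both strands. It lay in 6 of the 43 windows, those of 6 of the 37 genes (Copb1, Copb2, Kdelr3, Sec16b, Sec23a and Sec24d), and in 0.676% of the 32851 windows of all genes. A CREB3-type element, TGCCACGT, was found in 8 of the 43 windows, those of 8 of the 37 genes (Sar1a, Sec13, Sec16b, Sec23a, Sec24c, Sec24d, Sec31a and Tmed3), and in 0.612% of all windows. The 2 elements can overlap, as they do in the windows of Sec16b, Sec23a and Sec24d. Neither ER stress element of the CCAAT kind was found in a window of these genes (CCAAT, 9 bases, CCACG, in 0.119% of all windows, and ATTGG, 1 base, CCACG, in 0.0365%). The short cores ACGTG and CCACG, parts of these elements, were in 27 and 31 of the 43 windows (26 and 28 of the 37 genes), and in 19.6% and 32.8% of all windows. Stretches around the element are shown for 5 genes whose values are given below, each 5′ to 3′ on the strand of the gene, with the element (or its reverse complement) in capitals. They lie at chr3:123267425-123267495 (plus strand, Sec24d), chr7:114254681-114254753 (minus strand, Copb1), chr15:79516333-79516407 (plus strand, Kdelr3), chr9:89705192-89705289 (minus strand, Tmed3) and chr14:20674201-20674298 (plus strand, Sec24c).
Sec24d, UPR element: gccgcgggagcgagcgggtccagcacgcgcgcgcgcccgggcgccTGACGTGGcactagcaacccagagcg
Copb1, UPR element: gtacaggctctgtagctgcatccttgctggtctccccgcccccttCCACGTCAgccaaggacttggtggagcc
Kdelr3, UPR element: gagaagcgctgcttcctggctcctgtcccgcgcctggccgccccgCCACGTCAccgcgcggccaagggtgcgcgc
Tmed3, CREB3-type element: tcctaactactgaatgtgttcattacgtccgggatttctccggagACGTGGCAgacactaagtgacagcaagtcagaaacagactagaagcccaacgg
Sec24c, CREB3-type element: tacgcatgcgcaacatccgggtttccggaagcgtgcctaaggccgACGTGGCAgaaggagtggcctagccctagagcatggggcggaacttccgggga
The element began 26 bases before the start in Sec24d, 28 in Copb1 and 30 in Kdelr3, and 201 and 75 bases before it in Tmed3 and Sec24c. A match shows only that these letters are there.

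Values are FPKM, fragments scaled to transcript length and to the fragments mapped in the library, so that levels of different genes can be set side by side per length. Libraries held an estimated 15.3 to 25 M fragments, and 12582 to 12870 genes of a library were at 1 FPKM or more. Rod markers, the check of the tissue label, were abundant in every library, with 6 of 6 detected and a summed level of 13143 to 22405 FPKM. The 7 lens markers varied more than any other list that was examined for cells outside the neural retina, from 2.55 FPKM in tunicamycin library 3 to 12162 in tunicamycin library 1.

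In vehicle retinas the machinery was broadly expressed. In vehicle set 2 the p24 protein Tmed2 was the highest at 73.7 ± 4.02 FPKM (SD, n = 5), close to the COPI subunits Cope (70.6 ± 4.29), Copa (68.1 ± 2.93) and Copz1 (67.7 ± 2.35), whose ranges overlapped with it. Within families the levels were unequal. Among the 4 SEC24 genes, which choose different cargo, Sec24c stood at 37.9 ± 2.51, Sec24b at 17.1 ± 1.72, Sec24a at 5.94 ± 0.217 and Sec24d at 3.72 ± 0.693. No library of one of these 4 overlapped with a library of another. Among the KDEL receptors Kdelr1 was at 57.0 ± 5.52, Kdelr2 at 16.9 ± 1.77 and Kdelr3 at 2.75 ± 1.204, again without overlap. Sec31b and Sec16b, the second copies of the outer cage and scaffold genes, lay at 0.648 ± 0.0942 and 0.314 ± 0.0915 FPKM, and these 2 were too low to be tested.

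Tunicamycin was compared with vehicle set 2 to see how far the positive control moved this machinery. Of 41 tested genes 21 rose, 0 fell and 20 did not pass, against 8.7% of all 13117 tested genes called and 5.89% called as higher (adjusted p under 0.05, limma on log2 of FPKM plus 1, all 25 libraries in 1 fit). The median log2 change was 0.21, and 0.01 over all tested genes. At an unadjusted p under 0.05 there were 33 genes, and 37 of the 41 changes were positive. The matching shares of all tested genes were not taken, so these counts are a description only. Rises were found in every role group: 1 of 4 tested genes of the COPII GTPase and assembly group, 4 of 8 of the COPII coat, 1 of 2 large-cargo adaptors, 5 of 9 of the p24 family, 3 of 4 other cargo receptors, 1 of 3 KDEL receptors, 5 of 9 of the COPI coat, and Arf4 but not Golgb1. Median changes were 0.18 for COPII assembly, 0.23 for the COPII coat, 0.26 for the p24 family, 0.26 for other cargo receptors, 0.37 for KDEL receptors and 0.19 for the COPI coat. No test between the role groups was made, since genes of a group are not replicates.

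This count rests on a spread pooled over all 5 groups. On the log2 scale the median SD of the 41 genes was 0.15 with tunicamycin and 0.06 to 0.09 in the other groups, and tunicamycin had the largest SD of the 5 groups for 20 of the 21 genes that rose. With only the libraries of vehicle set 2 and tunicamycin in the fit, 1 gene, Tmed3, passed, at the same changes. Of all 13117 tested genes 86 passed there, against 1141 in the fit of all 5 groups. With the 3 groups of the same gene list 8 passed (Arcn1, Copz1, Sec24d, Surf4, Tmed2, Tmed3, Tmed7 and Tmed9), and 399 of all tested genes. With a variance weight for each group the counts were 16 and 432. Ranges of the groups did not overlap for 12 of the 41 genes, all higher with tunicamycin, against 2.81% of all tested genes (1.24% lay apart and lower). Of these 12 genes 11 were among the 21, the other being Tmed5.

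**Figure D1:**
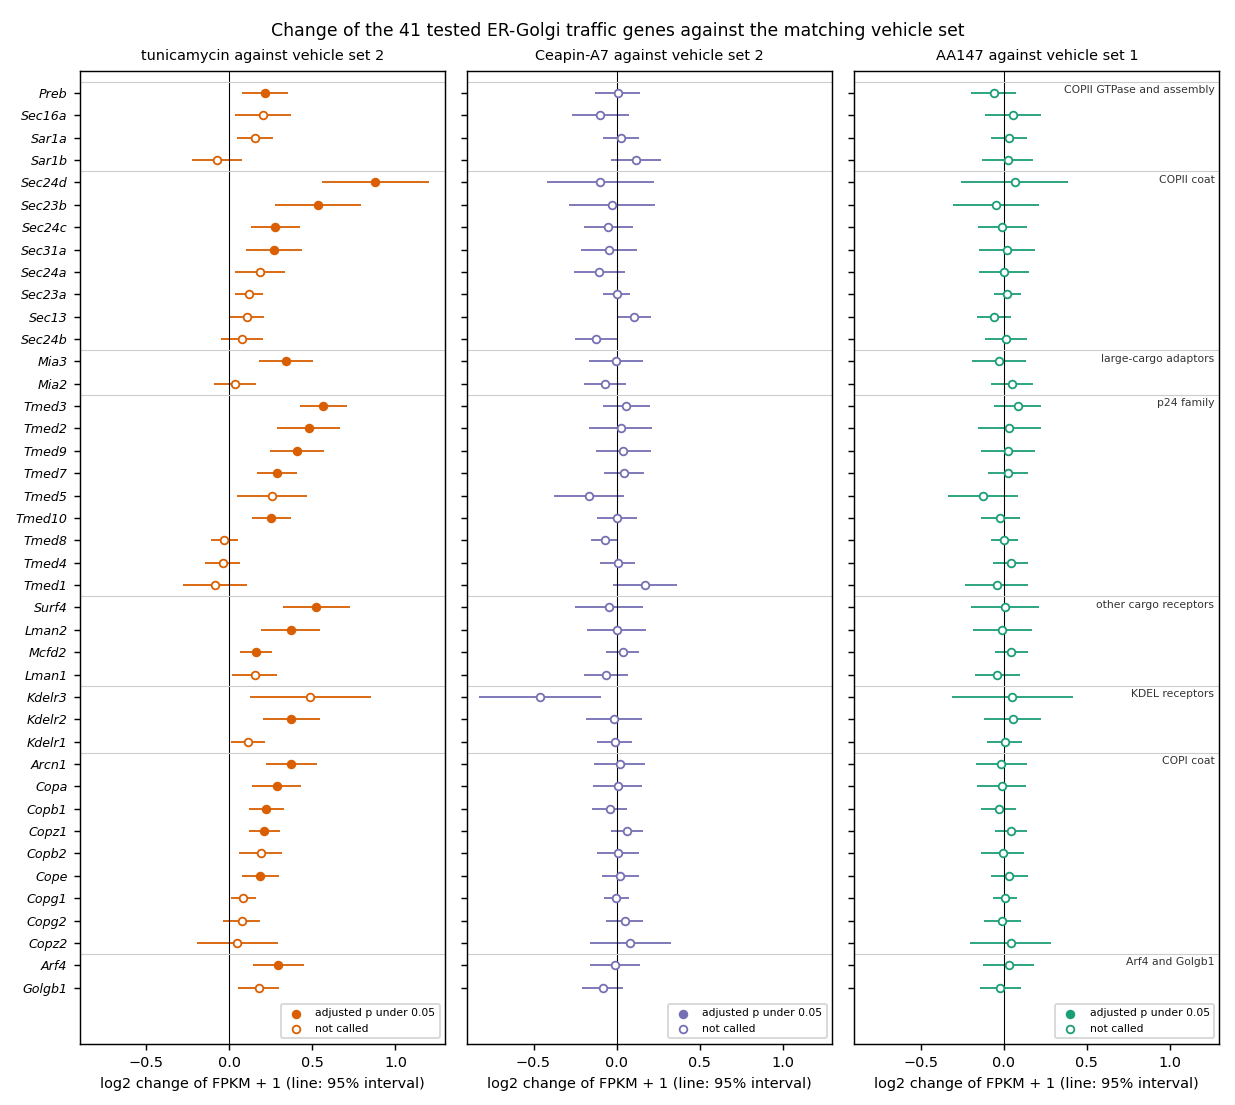
Log2 change of FPKM plus 1 (x axis) of the 41 tested genes (y axis, ordered by role group) with tunicamycin, Ceapin-A7 and AA147, each against the vehicle set of the same gene list. Points are limma estimates, lines 95% intervals and filled points an adjusted p under 0.05. With tunicamycin 21 points are filled, all to the right of 0, and with the other 2 compounds 0 are.

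Of the factors that start COPII assembly, Preb, the exchange factor for SAR1, had 24.1, 23.6, 21.8, 26.1 and 23.5 FPKM in vehicle set 2 libraries 1 to 5, and 31.8, 24.4, 25.5, 30.2 and 27.4 in the tunicamycin libraries. Libraries 2 and 3 of tunicamycin lay within the vehicle range. The log2 change was 0.21 ± 0.07 (SE, adjusted p = 0.0443), a call that was lost in 17 of 23 other settings. Sec16a (0.20), the scaffold of ER exit sites, and Sar1a (0.16) and Sar1b (-0.08), the GTPases themselves, did not pass.

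Sec24d, a cargo-binding subunit of the COPII coat, changed most. It had 4.18, 3.00, 3.09, 4.61 and 3.70 FPKM in the vehicle libraries and 13.3, 7.34, 4.49, 8.13 and 6.87 with tunicamycin. Only tunicamycin library 3 fell within the vehicle range, below vehicle library 4. Its log2 change was 0.88 ± 0.16 (adjusted p = 0.00111), and 0.69 to 1.04 over the other settings. Sec23b, of the GTPase-activating subunit, had 24.6, 22.8, 25.3, 26.7 and 24.8 FPKM with vehicle and 58.3, 35.3, 24.5, 39.9 and 31.2 with tunicamycin. Again library 3 was within the vehicle range and the other 4 were above it (log2 change 0.53 ± 0.13, adjusted p = 0.00997). Sec24c and the outer-cage gene Sec31a rose by 0.28 ± 0.07 and 0.27 ± 0.08, the latter losing its call in 17 of 23 other settings. Sec23a (0.12), Sec24a (0.18), Sec24b (0.08) and Sec13 (0.10) had positive changes that did not pass.

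Among the large-cargo adaptors, which help bulky cargo such as procollagen to leave the ER, Mia3 had 36.2, 36.3, 35.4, 40.01 and 37.7 FPKM with vehicle and 64.7, 42.7, 41.1, 48.5 and 42.7 with tunicamycin. All 5 tunicamycin libraries lay above all 5 of vehicle (log2 change 0.34 ± 0.08, adjusted p = 0.00821). Its relative Mia2 changed by 0.03 and did not pass.

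The p24 proteins shuttle between ER and Golgi and load, among others, lipid-anchored proteins. Tmed3 had 24.0, 24.8, 22.7, 21.6 and 20.3 FPKM with vehicle and 41.2, 31.2, 30.4, 35.5 and 32.5 with tunicamycin. The groups were apart, and library 3, the weakest for most genes, was close to libraries 2 and 5 here. Its log2 change of 0.57 ± 0.07 had the smallest adjusted p of the 41 genes (8.76e-06) and kept its call in all 23 other settings, at 0.49 to 0.66. Tmed2 had 70.0, 78.5, 69.0, 75.5 and 75.2 FPKM with vehicle and 149, 97.8, 87.8, 97.6 and 92.3 with tunicamycin. Tmed9 had 65.8, 64.0, 63.1, 65.1 and 63.7 with vehicle and 116, 76.3, 73.9, 87.0 and 81.1 with tunicamycin. For both, the tunicamycin libraries were above every vehicle library, and the log2 changes were 0.48 ± 0.09 (adjusted p = 0.00214) and 0.41 ± 0.08 (adjusted p = 0.00256). Tmed7 and Tmed10 rose by 0.28 ± 0.06 and 0.25 ± 0.06. Tmed1 (-0.09), Tmed4 (-0.04) and Tmed8 (-0.03) had small negative changes and Tmed5 a positive one (0.26), and none of these 4 passed.

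Surf4, a receptor for many soluble cargo proteins, had 51.2, 51.2, 45.6, 49.7 and 44.2 FPKM with vehicle and 100.98, 64.1, 54.1, 68.5 and 69.3 with tunicamycin. The groups did not overlap (log2 change 0.52 ± 0.10, adjusted p = 0.00193). Lman2, a lectin of the early secretory pathway, had 26.6, 23.4, 25.6, 27.1 and 22.6 FPKM with vehicle and 45.1, 31.9, 26.2, 31.9 and 30.6 with tunicamycin, where library 3 was within the vehicle range (log2 change 0.37 ± 0.09, adjusted p = 0.00957). The receptor pair that exports blood clotting factors moved little: Mcfd2 rose by 0.16 ± 0.05, lost in 15 of 23 other settings, and Lman1 at 0.15 did not pass.

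The KDEL receptors return ER chaperones from the Golgi. Kdelr2 had 19.1, 16.5, 15.8, 18.2 and 14.8 FPKM with vehicle and 28.6, 22.4, 18.3, 21.01 and 21.4 with tunicamycin, and rose by 0.37 ± 0.08 on the log2 scale (adjusted p = 0.00644). Library 3 was inside the vehicle range. Kdelr3, whose start region holds the UPR element shown above, had 2.40, 1.92, 1.49, 4.41 and 3.55 FPKM with vehicle and 6.27, 3.51, 3.25, 3.33 and 4.46 with tunicamycin. Its vehicle libraries were more spread, relative to their mean, than those of the other 2 receptors, the ranges overlapped, and the change of 0.49 ± 0.18 did not pass (adjusted p = 0.0856). Without vehicle library 4, its highest, the change was 0.63 and passed (adjusted p = 0.0234). That was 1 of 4 other settings in which Kdelr3 passed, and in 19 of 23 it did not. Its change was 0.35 to 0.79 over these settings. Kdelr1, the most abundant of the 3, was at 57.0 ± 5.52 FPKM with vehicle and 61.5 ± 1.93 with tunicamycin, a change of 0.11 that did not pass. Possible clients gave a comparison, picked by the end of the encoded protein alone, without a check of its place in the cell. Of 27 tested genes whose encoded protein ends in KDEL, HDEL or RDEL, 13 rose and 1 fell. Their median log2 change was 0.25, where 5.89% of all tested genes rose, 2.81% fell and the median was 0.01. They ranged from Sdf2l1 (2.75) and Hspa5 (2.10), chaperones of the ER, to Eogt, a glycosyltransferase, which fell by 0.25.

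Of the COPI coat, 5 subunits rose. Arcn1, the delta subunit, had 54.7, 56.2, 53.0, 60.0 and 57.0 FPKM with vehicle and 96.8, 72.6, 60.0, 72.5 and 67.7 with tunicamycin, with the lowest tunicamycin library just above the highest of vehicle (60.02 against 60 FPKM). The log2 change was 0.37 ± 0.07 (adjusted p = 0.00295). Copa, the alpha subunit, had 66.5, 64.9, 68.6, 72.7 and 68.0 with vehicle and 109, 79.1, 69.2, 87.2 and 76.5 with tunicamycin, and rose by 0.29 ± 0.07 (adjusted p = 0.0145). Library 3 was within the vehicle range. Copb1, Copz1 and Cope rose by 0.22 ± 0.05, 0.21 ± 0.05 and 0.19 ± 0.05, and the call of Cope was lost in 14 of 23 other settings and its direction turned in 1. Copb2 (0.19), Copg1 (0.08), Copg2 (0.07) and Copz2 (0.05) did not pass. Arf4, a GTPase of the early Golgi, had 68.4, 67.9, 64.3, 63.4 and 62.6 FPKM with vehicle and 102, 78.5, 69.3, 78.7 and 76.5 with tunicamycin, without overlap (log2 change 0.29 ± 0.07, adjusted p = 0.0151). The tether Golgb1 changed by 0.18 (adjusted p = 0.0658).

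**Figure D2:**
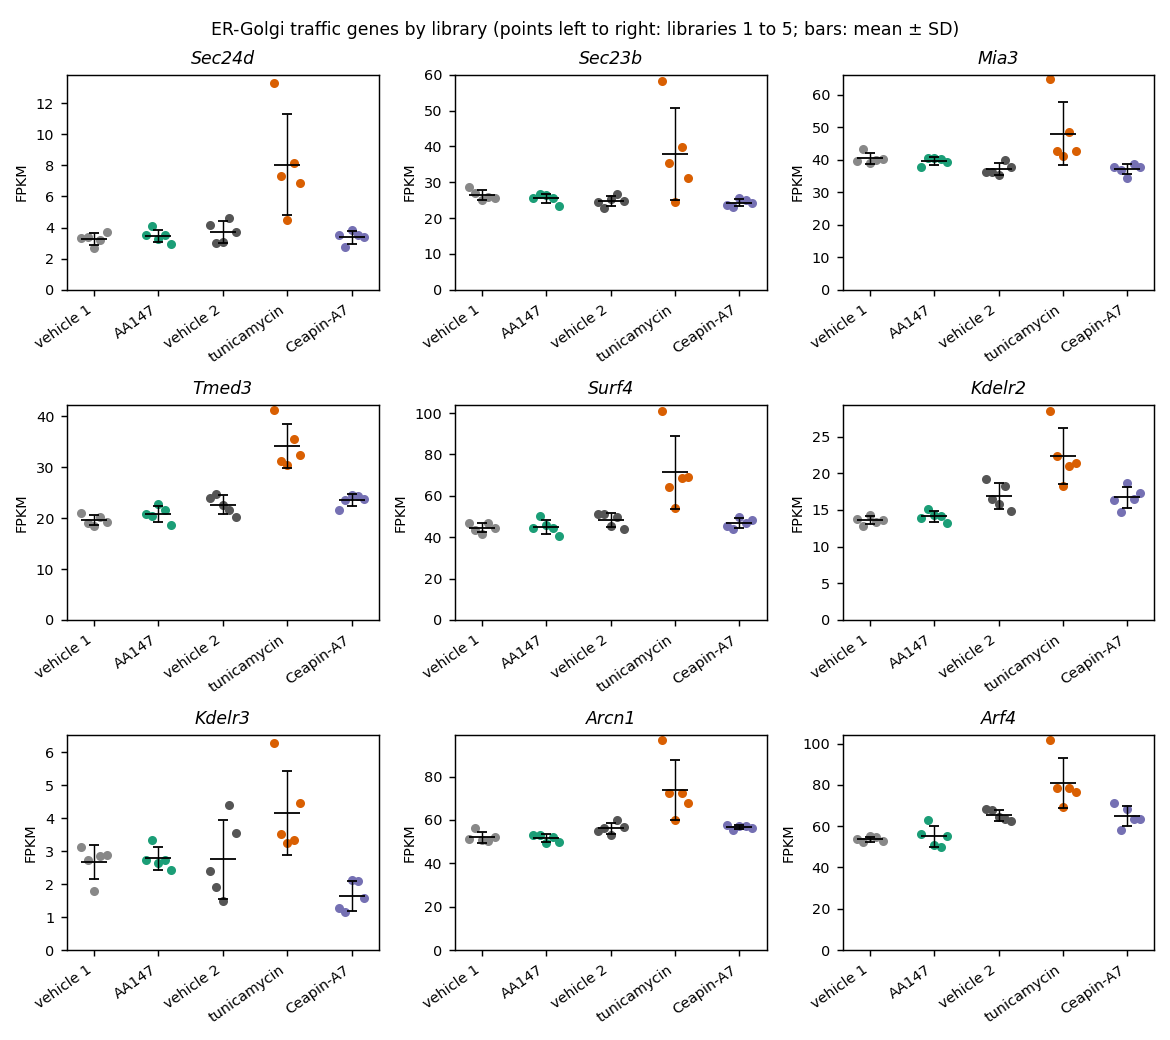
FPKM (y axis, from 0) of 9 genes in each of the 25 libraries by group (x axis). Points are libraries 1 to 5 from left to right, and bars give the mean and SD of 5 libraries. Sec24d reached 13.3 FPKM in tunicamycin library 1 and 4.49 in library 3, and in Mia3 all 5 tunicamycin points lie above those of vehicle set 2.

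The genes that rose were graded alike across the tunicamycin libraries. Library 1 was the highest of the 5 for 20 of the 21 genes and library 3 the lowest for 19. Their median log2 excess over the mean of vehicle set 2 was 0.70, 0.24, 0.10, 0.34 and 0.27 in libraries 1 to 5. These genes were chosen as higher in the same libraries, which enlarges such an excess. Over all 41 tested genes it was 0.46, 0.17, 0.08, 0.24 and 0.19. Hspa5, the main ER chaperone, was at 1513, 495, 229, 581 and 427 FPKM. In each of these, library 1 was the highest, library 4 next and library 3 the lowest, while libraries 2 and 5 changed places for Hspa5. By role group, library 1 had medians of 0.59 for the COPII coat, 0.53 for the p24 family, 0.60 for other cargo receptors, 0.73 for KDEL receptors and 0.33 for the COPI coat, and library 3 had 0.04, 0.12, 0.09, 0.11 and 0.08. Of the 21 genes, 11 had all 5 tunicamycin libraries above every vehicle library, 7 had 4 and 3 had 3. This count too follows in large part from their choice as higher in these libraries. Neither it nor the order of libraries 1 and 3 was counted over all called genes. Leaving out library 1 left 17 genes past the threshold and leaving out library 3 gave 28. Without both there were 18. Of all tested genes 611, 1985 and 883 passed in these settings.

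**Figure D3:**
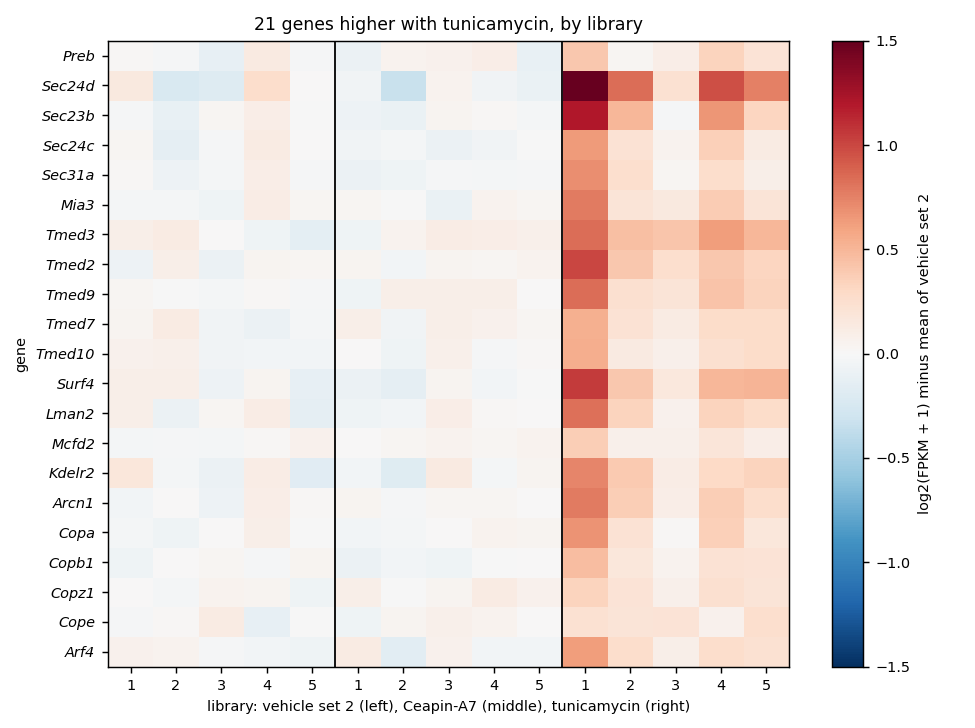
Log2 of FPKM plus 1 minus the mean of vehicle set 2 (color scale) for the 21 genes that rose with tunicamycin (rows), in libraries 1 to 5 of vehicle set 2, Ceapin-A7 and tunicamycin (columns, left to right). Tunicamycin library 1 is the darkest column, with a median of 0.70, and library 3 the palest of the 5, with 0.10. The rows were chosen as higher in these libraries, and over all 41 tested genes the 2 medians were 0.46 and 0.08.

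Levels of other cell types were read beside these changes. Lens markers (7 of 7 detected) differed widely within groups and overlapped between them, and 0 of 7 passed. They summed to 12162, 5460, 2.55, 129 and 4963 FPKM in tunicamycin libraries 1 to 5 and to 4496, 1544, 5.61, 1556 and 20.4 in vehicle set 2. The 21 genes that rose had a median excess of 0.70, 0.24, 0.10, 0.34 and 0.27 in tunicamycin libraries 1 to 5. It was -0.05 in Ceapin-A7 library 1, which had 8105 FPKM of lens markers and no tunicamycin. The part of lens tissue in the changes was not tested. Over the 2 tunicamycin and 2 vehicle libraries with under 1000 FPKM of lens markers, 1 gene, Tmed3, passed. Of all 13117 tested genes 55 did. The median change was 0.18 over the 41 genes and 0.03 over all tested genes. The 21 genes that rose all had positive changes there (median 0.25), but they were chosen in a fit that held the same libraries. Pericyte markers (5 of 5 detected) summed to 8.60 to 11.3 FPKM with tunicamycin and 23.9 to 28.7 in vehicle set 2, and 4 of 5 fell. Endothelial markers (6 of 6 detected) summed to 36.5 to 63.6 and 73.1 to 97.6, and 3 of 6 fell and 1 rose. Pigment epithelium markers (5 of 5 listed) summed to 9.88 to 39.2 and 97.0 to 210, and 4 of 4 tested fell. None of these markers was at 0 in all libraries. The part of these cells in the changes was not tested, and fewer cells of a type cannot be told apart from less RNA per cell in bulk tissue. The Y-linked gene Ddx3y did not reach 1 FPKM in 4 of 5 vehicle set 2 libraries, and reached it in 5 of 5 with tunicamycin. If Ddx3y marks the sex of the animals, sex can hardly be told apart from tunicamycin in this comparison. A covariate for it is estimated only from groups with libraries on both sides of 1 FPKM, which tunicamycin is not. With the presence of Ddx3y as a covariate 9 genes passed (Arcn1, Kdelr2, Mia3, Sec24d, Surf4, Tmed2, Tmed3, Tmed7 and Tmed9), and 449 of all tested genes. The median change was 0.22 over the 41 genes and 0.01 over all tested genes. The 21 genes, chosen from the same libraries, all kept a positive change, at 0.11 to 0.85.

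The log2 ratio of 2 related genes within a library (of FPKM plus 1), which is less affected by the scaling of that library, was taken for 11 pairs. The pairs were chosen after the changes of their genes had been seen, so the ratios are a description and carry no test. With tunicamycin the mean ratio of Sec24d to Sec24c was 0.60 above that of vehicle set 2, that of Tmed9 to Tmed4 0.45, of Mia3 to Mia2 0.31 and of Tmed3 to Tmed7 0.28. In these 4 pairs the 5 ratios with tunicamycin lay above the 5 of vehicle. In the other 7 pairs the ranges overlapped. There the differences were 0.41 for Sec23b to Sec23a, 0.38 for Kdelr3 to Kdelr1, 0.26 for Kdelr2 to Kdelr1, 0.23 for Sar1a to Sar1b, 0.16 for Copz1 to Copz2, 0.11 for Sec24a to Sec24b and 0.01 for Copg1 to Copg2. With Ceapin-A7 and AA147 the ranges overlapped with those of vehicle in all 11 pairs.

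**Figure D4:**
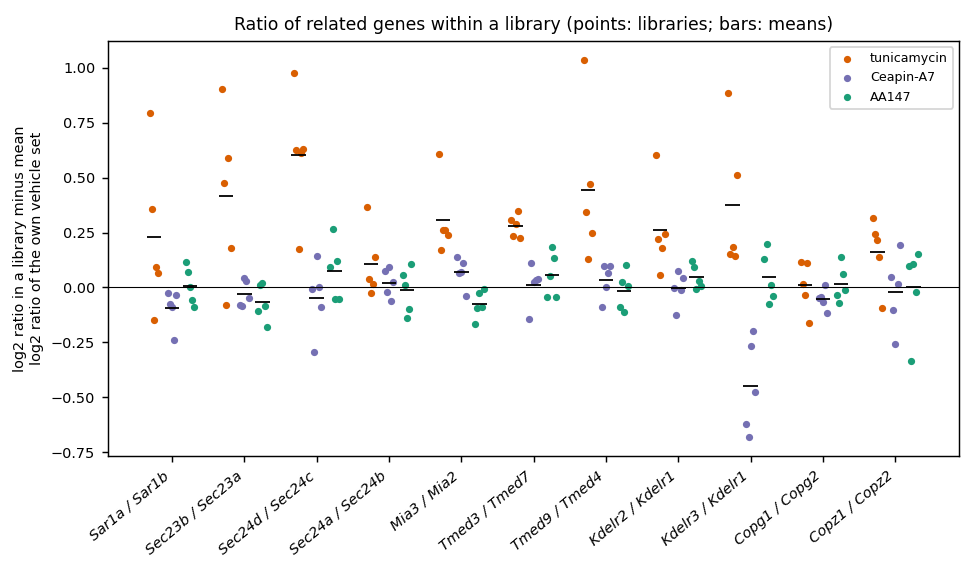
Log2 ratio of 2 related genes within a library minus the mean log2 ratio of the matching vehicle set (y axis) for 11 pairs (x axis). Points are the 5 libraries of each compound and bars their means. All tunicamycin points lie above 0 for Sec24d to Sec24c, Mia3 to Mia2, Tmed3 to Tmed7 and Tmed9 to Tmed4. They also do for Kdelr2 to Kdelr1 and Kdelr3 to Kdelr1, where the ranges overlapped with those of vehicle.

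The genes with and without the promoter elements were both found among those that rose. Of the 6 genes with the UPR element, Sec24d and Copb1 rose, Copb2, Kdelr3 and Sec23a did not pass and Sec16b was not tested. Of the 8 with the CREB3-type element, Sec24c, Sec24d, Sec31a and Tmed3 rose. In all, 17 of the 37 genes with a window rose.

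Beyond the 43, a list of 83 tethers, SNAREs, GTPases and regulators of the same route had 81 tested genes, of which 25 rose and 1 fell, with a median log2 change of 0.06, beside 5.89% and 2.81% of all tested genes and a median of 0.01. The changes of the 8 named here were the largest. Creb3l1 (0.81 ± 0.23) and Creb3l2 (0.39 ± 0.10) are transcription factors of the CREB3 family that reside in the ER membrane. The others were Tmem39a (0.68 ± 0.09), an ER membrane protein, Scfd1 (0.57 ± 0.09), a SNARE regulator, the tether Uso1 (0.55 ± 0.12), the SNAREs Bet1 (0.52 ± 0.12) and Gosr2 (0.38 ± 0.08), and Arfgap3 (0.44 ± 0.11), which acts on ARF GTPases at the Golgi. The GTPase Arf3 fell by 0.18.

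Ceapin-A7 was compared with vehicle set 2, to see whether the compound described as an ATF6 inhibitor lowered these genes in retinas without an added ER stress. In limma 0 of the 41 genes passed, against 0% of all tested genes, and 2 had an unadjusted p under 0.05, Kdelr3 and Sec13. The share of all tested genes under that unadjusted p was not taken. Kdelr3 had 2.40, 1.92, 1.49, 4.41 and 3.55 FPKM with vehicle and 1.28, 1.15, 2.13, 2.10 and 1.59 with Ceapin-A7. Vehicle libraries 4 and 5 and, less so, library 1 were above all Ceapin-A7 libraries, but the groups overlapped, and the change of -0.46 ± 0.18 did not pass (adjusted p = 0.332). Sec24a was the one tested gene whose ranges were apart, at 5.80 to 6.32 FPKM with vehicle and 5.10 to 5.73 with Ceapin-A7, a change of -0.10 (adjusted p = 0.578), where 0.48% of all tested genes lay apart and lower and 0.968% apart and higher.

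None of the other genes passed either. Sar1b had 51.7, 60.0, 56.2, 49.8 and 51.3 FPKM with vehicle and 57.1, 57.2, 58.1, 62.8 and 56.8 with Ceapin-A7 (change 0.12). Tmed1 had 12.2, 15.5, 14.1, 11.5 and 9.94 with vehicle and 14.9, 14.4, 15.7, 13.8 and 12.6 with Ceapin-A7 (0.17). Sec24b had 16.5, 14.9, 16.5, 18.7 and 19.0 with vehicle and 15.2, 15.7, 15.2, 15.6 and 16.2 with Ceapin-A7 (-0.13). In each of these 3 genes the groups overlapped. Mia2 ranged from 21.7 to 27.6 with vehicle and 21.7 to 25.7 with Ceapin-A7, and Lman1 from 44.6 to 58.0 and 45.7 to 51.8. Copz2 ranged from 3.40 to 6.13 and 4.04 to 5.80, and Golgb1 from 14.6 to 17.3 and 14.7 to 15.6. The 21 genes that rose with tunicamycin had changes of -0.10 to 0.06 here, with a median of 0.00 and 95% intervals that reached from -0.42 to 0.23. For 36 of the 41 genes the interval lay wholly within 0.3 log2 units of 0, and the missing calls do not show that the levels were equal. Nor did ER stress genes read as a check pass: Hspa5 (-0.10), Sdf2l1 (-0.08), Derl3 (-0.16), Manf (-0.04), Dnajb9 (-0.10), Hsp90b1 (-0.07) and Xbp1 (-0.12). Whether Ceapin-A7 acted on ATF6 in these retinas was not tested.

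AA147 was compared with vehicle set 1 to ask whether the compound described as an ATF6 activator raised the machinery. Of the 41 genes 0 passed, against 0% of all tested genes, and 0 had an unadjusted p under 0.05 in limma, a share not taken over all tested genes. Changes ran from -0.12 to 0.08, with a median of 0.01, as over all tested genes. ER stress genes read as a check did not pass either: Hspa5 (-0.15), Sdf2l1 (-0.02), Derl3 (0.12), Manf (-0.07), Dnajb9 (0.06), Hsp90b1 (-0.14) and Xbp1 (-0.03). Whether AA147 acted on ATF6 in these retinas was not tested. Tmed5 had 4.65, 5.12, 7.72, 6.20 and 7.22 FPKM with vehicle and 5.73, 5.47, 5.00, 5.21 and 6.18 with AA147 (change -0.12 ± 0.10), with all AA147 libraries inside the vehicle range. Sec24d, which changed most with tunicamycin, had 3.31, 3.41, 2.68, 3.18 and 3.71 with vehicle and 3.50, 4.07, 3.26, 3.50 and 2.97 with AA147 (0.07 ± 0.16). Kdelr2 had 13.8, 12.8, 14.3, 13.3 and 13.6 with vehicle and 13.8, 15.2, 14.3, 14.2 and 13.2 with AA147 (0.05 ± 0.08). The groups overlapped for each. Preb ranged from 24.1 to 29.1 with vehicle and 24.2 to 27.7 with AA147, Mia2 from 21.2 to 23.3 and 21.6 to 23.7, and Mcfd2 from 41.5 to 45.3 and 42.0 to 48.4. Copz1 ranged from 56.4 to 65.5 and 59.4 to 67.8, and Arf4 from 52.5 to 55.2 and 49.97 to 62.9. The 95% interval lay within 0.3 log2 units of 0 for 37 of the 41 genes, and the highest upper bound was 0.42, for Kdelr3.

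Set against each other within 1 gene list, tunicamycin was above Ceapin-A7 for 27 of the 41 genes and below for 0, with 14 not passing, against 13.3% of all tested genes called (8.83% higher, 4.48% lower). Sec24d differed by 0.98 ± 0.16 (adjusted p = 0.000296) and Kdelr3 by 0.95 ± 0.18 (adjusted p = 0.00139), the latter with 3.25 to 6.27 FPKM against 1.15 to 2.13 and no overlap. Tmed5 had 12.4, 9.26, 9.80, 10.3 and 10.5 FPKM with tunicamycin and 6.12, 8.30, 8.82, 6.67 and 7.92 with Ceapin-A7. All tunicamycin libraries were the higher (0.42 ± 0.10, adjusted p = 0.00876). Sec16a had 28.5, 22.3, 17.7, 22.4 and 19.0 with tunicamycin and 17.7, 17.7, 16.4, 17.6 and 17.8 with Ceapin-A7 (0.30 ± 0.08, adjusted p = 0.0178), where tunicamycin library 3 overlapped. The groups were apart for 17 genes, all higher with tunicamycin, against 6.73% of all tested genes (2.74% lay apart and lower). With only these 2 groups in the fit 8 genes passed (Copb1, Golgb1, Kdelr3, Lman1, Sec24d, Surf4, Tmed3 and Tmed5), and 613 of all tested genes. With only libraries low in lens markers 1 did, Tmed3, and 72 of all tested genes.

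The change with tunicamycin was also tested against the change with AA147, each taken over its own vehicle set. Of the 41 genes 1 passed, against 1.04% of all tested genes (0.64% higher, 0.396% lower): Tmed3, by 0.48 ± 0.10 (adjusted p = 0.0103). Another 22 had an unadjusted p under 0.05, among them Sec24d with 0.81 ± 0.22 (adjusted p = 0.0755) and Surf4 with 0.51 ± 0.14 (adjusted p = 0.0761), and did not pass. How many of all tested genes had such an unadjusted p was not counted. The count was 5 without tunicamycin library 1, 15 without library 3 and 12 without both. It was 0 with Ddx3y as a covariate and 0 with only libraries low in lens markers. In the same order 167, 637, 386, 60 and 17 of all tested genes passed. For most of the 41 genes a difference between the response to tunicamycin and that to AA147 was therefore not shown at an adjusted p under 0.05.

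The 2 vehicle sets differed from each other for many of the genes, which limits any level set across the gene lists. In vehicle set 2, 15 of the 41 genes were higher and 8 lower than in vehicle set 1, against 46.8% of all tested genes called (26.3% higher, 20.5% lower), so the share here was close to that of all genes. Cope, of the COPI coat, had 103, 103, 94.5, 107 and 109 FPKM in set 1 and 69.7, 71.6, 76.6, 64.6 and 70.3 in set 2 (log2 change -0.54 ± 0.05, adjusted p = 1.74e-08). Copg1 had 73.7, 71.6, 70.8, 73.1 and 70.6 in set 1 and 54.0, 54.2, 57.1, 55.9 and 55.5 in set 2. Tmed8 had 7.08, 6.56, 7.01, 6.94 and 6.87 in set 1 and 9.70, 9.78, 9.62, 10.9 and 9.71 in set 2. For these 3 the sets did not overlap. AA147 libraries lay with set 1 (Cope at 106 ± 9.03 FPKM) and Ceapin-A7 libraries with set 2 (71.6 ± 2.73), as their gene lists do. The sets also differed in Ddx3y, which was under 1 FPKM in 0 of 5 libraries of set 1 and 4 of 5 of set 2. With AA147 and with Ceapin-A7 it was under 1 FPKM in 2 of 5 each. With its presence as a covariate 17 of the 41 genes and 5171 of all tested genes passed between the vehicle sets. Time, batch and processing of the 2 sets cannot be told apart from each other or from this difference. Sex, if Ddx3y marks it, can be told apart from them only in small part.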

How the data were processed

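Retinal RNA of 25 libraries was measured by stranded mRNA sequencing, per the labels' protocols, after removal of cornea and lens. The authors deposited FPKM values with 2 decimals in 1 table per group, per the file headers. Tools named in the submitters' processing notes, without role or order, are DESeq2 1.4.5, RSEM 1.2.18 and HISAT2 2.0.4, with the build GRCm39. Columns were matched to samples by name, and 0 columns were unused.

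FPKM is no count, so values were tested as log2(FPKM + 1), which understates the change of low genes, with limma 3.58.1 in R 4.3.3 and an intensity trend. A gene entered if 5 or more of the 25 libraries had 1 FPKM or more, which 13117 did. One fit held all 5 groups. Tests were two-sided, with Benjamini-Hochberg adjustment over all tested genes and a threshold of 0.05. Depth was estimated from the steps of low values of 1573 single-transcript genes, taking 250 bases off each length. Mean distances of 0.142 to 0.187 from whole fragments remained, so fragments were not recovered and no count test was run. At the median estimate of 23.4 M fragments, 1 FPKM over 2 kb corresponds to about 40.9 fragments. The fit was tested on simulated data with the same spread in every group. That cannot show how it behaves with the larger spread of the tunicamycin libraries.

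The members, gene lists and tests were chosen with earlier results of these data known. Values by library are given for at most 12 called members of largest change per comparison and the largest change of each role group, and others by range and count. Up to 8 of the other pathway genes of largest change are named, with any that fell. Possible KDEL clients were found by their ending alone, by translating GENCODE vM21 transcripts, which gave 29 genes, 28 of them in the tables. Promoter windows are from RefSeq. Figures were drawn with matplotlib 3.10.9. Shared replicate numbers did not pair the samples. Pseudocount, filter, scaling, samples in the fit, variance weights, a replicate block, the vehicle set used and left-out libraries were varied. The covariate Ddx3y, the selection by lens markers, the omission of tunicamycin libraries 1 and 3 and the ratios were chosen after the data were seen.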

Additional observations from a re-analysis of the deposited data

Results flagged for a closer look

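Some single libraries stood apart from the other 4 of their group by Dixon's test, 16 in 215 groups of 5 values, where chance flags about 1 in 20 groups. Tunicamycin library 1 was far above the others for Sar1a (89.4 FPKM), Tmed2 (149), Lman1 (63.9) and Copb2 (60.0), and tunicamycin library 5 for Sec16b (0.39). With Ceapin-A7, library 4 was high for Sar1b (62.8) and Copg1 (58.0) and library 3 low for Sec16a (16.4). In vehicle set 2, library 4 was high for Sec24a (6.32) and Tmed8 (10.9). In vehicle set 1, library 2 was high for Sec24c (49.6) and Mia3 (43.3), library 1 high for Copb2 (45.8) and library 3 low for Tmed10 (51.3). With AA147, library 3 was high for Sec31a (43.7) and library 2 for Copz2 (5.48).

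Tmed3 differed between compounds: its log2 change with tunicamycin exceeded that with AA147 by 0.48 in the test of the difference itself (limma adjusted p = 0.0103).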

How the results depend on the processing

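With tunicamycin against vehicle set 2 the 21 genes became 8 with the 3 groups of the same gene list in the fit and 1 with the compared groups only, where the changes are the same and the estimate of the spread differs, 9 with the Ddx3y covariate and 1 over libraries low in lens markers. Over all tested genes 1141 became 399, 86, 449 and 55. The count among the 41 was 17 to 28 over left-out libraries, and 21 with a pseudocount of 0.1, 19 without a filter, 17 with median-ratio scaling and 18 with quantile normalization. Over all tested genes it was 611 to 1985 over left-out libraries, and 1133, 1179, 1115 and 1139 in the other settings. Median-ratio scaling moved the split of all called genes from 773 higher and 368 lower to 562 and 553. Against the mean of both vehicle sets the counts were 29 for tunicamycin, 12 for Ceapin-A7 and 8 for AA147, and Cope reversed with tunicamycin, to -0.085. Of all 13117 tested genes 5743, 4384 and 2948 passed there, so these counts stand beside a large share of all genes. This setting mixes 2 gene lists whose vehicle sets differ. Tunicamycin against Ceapin-A7 gave 27 genes, 8 with the compared groups only, 1 over libraries low in lens markers and 21 to 32 over left-out libraries. Over all tested genes these counts were 1746, 613, 72 and 925 to 2874. The difference from AA147 gave 1 gene, 4 with group variance weights, 0 with the Ddx3y covariate, 0 over libraries low in lens markers, 12 without tunicamycin libraries 1 and 3, and 1 to 15 over left-out libraries. Over all tested genes these counts were 136, 156, 60, 17, 386 and 89 to 637. Causes were not tested. Correlations of deviations between libraries of the same number ran from -0.43 to 0.47, so the numbers did not pair the samples. With the replicate block tunicamycin against vehicle set 2 gave 21 genes, 20 of them shared, and 1115 of all tested genes. The counts of the other comparisons stayed within 1.5 times. Values have 2 decimals, which together with depth limits the genes under 1 FPKM, Sec16b and Sec31b.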
